A study of Rattus norvegicus with 12 samples.

Results

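Ductus arteriosus (DA) endothelial cells (ECs) were compared between term fetuses before breathing (F group, 3 arrays) and neonates 30 minutes after breathing had begun (N group, 3 arrays). These are 6 of the 12 arrays of the series, and the other 6 hold aortic ECs of the same stages. The animals were Wistar rats at day 21 of gestation, and cesarean section was used for the F and the N groups alike. The wall of the DA was digested with collagenase and dispase, and CD31+/CD45- cells were collected by FACS. CD31 (Pecam1) marks endothelium, and CD45 (Ptprc) marks blood-derived cells, which the gate was meant to leave out. Each array held RNA pooled over repeated sorts of many litters, so the p-values speak of variation among pools. Members of the comparison were the probe sets with exactly 1 gene symbol whose mean log2 signal over the 12 arrays was at or above that of the lys spike, a foreign transcript that is added to each RNA sample in a small known amount. They were 11951 of the 26468 probe sets and stood for 11268 gene symbols. The mean of lys was 4.44, and the members nearest to it, Zic4 and Spmip3, had DA differences of -0.03 and -0.05, while Dab1 and Taar7b just under it had 0.08 and -0.17.

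The DA is the fetal shunt that lets blood pass from the pulmonary artery to the aorta. It constricts after birth, when blood oxygen rises and the supply of placental prostaglandin E2 ends, and its endothelium is the layer that meets these signals. Hormones that raise cyclic AMP act through the kinase PKA and the factor CREB, which binds the cyclic AMP response element and switches on early genes, several of which, such as Sik1 and Crem, damp the signal again. The coactivator YAP responds to load and cell shape through TEAD factors, with Ccn2 and Amotl2 among its usual targets, and glucocorticoid hormones act through their nuclear receptor on genes such as Tsc22d3.

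The sorted cells carried endothelial transcripts on all 6 arrays. Pecam1 stood at 12.08, 11.99 and 11.92 in F and at 12.16, 12.12 and 11.90 in N (log2 signal). Cdh5, the cadherin of endothelial junctions, ranged from 10.94 to 11.18 and Tek, the angiopoietin receptor, from 11.07 to 11.46. The 3 genes differed between N and F by 0.06, -0.02 and 0.02 on the log2 scale, the last with its sign turned to -0.02 by quantile normalization. Ptprc lay between 2.82 and 3.59 on the 6 arrays, below the lys mean, and was not tested. The summed signal of 17 endothelial markers ranged from 14.79 to 14.84 in F and from 14.79 to 14.87 in N (log2), so that the groups overlapped.

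The replicate number set the arrays apart more than birth did. Over the members, the number accounted for 64.2% of the sum of squares among the 6 DA arrays, the stage for 11.8% and the remainder for 24.0%. These shares have 2, 1 and 2 degrees of freedom, so the stage held no more per degree than the remainder. The first principal component held 59.0% of the variance and ran from the arrays numbered 1 to those numbered 3 in F as in N. The lys spike moved with the number too, at 6.17, 4.24 and 3.41 on the F arrays and 5.78, 4.78 and 3.53 on the N arrays, and 3797 members lay under lys on at least 1 DA array. The labels do not say what the numbers mark. Arrays of the same number deviated together in F and N, only weakly for number 2, and the number was therefore used as a block in a second fit. Pairing F with N by number is an assumption, on which the calls of that fit rest. Where a single adjusted p stands beside a gene it is that with the block. In the first fit, without the block, Tbc1d30 alone was called. Sik1 was called too when that fit had an intensity trend (adjusted p = 0.0354) or left out F array 1 of the DA (0.0393).

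**Figure D1:**
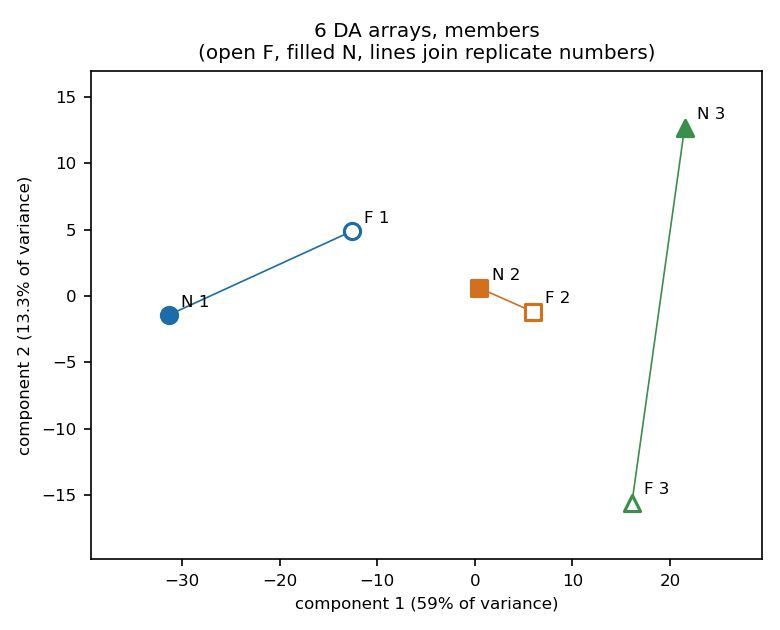
Principal components 1 (x axis, 59.0% of variance) and 2 (y axis, 13.3%) of the 6 DA arrays over the members, without unit; open symbols are F, filled symbols N, and lines join arrays with the same replicate number. The numbers are ordered along component 1, and F and N arrays are not separated along it.

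Few genes were called between N and F in DA ECs, and most of those called with the block were higher in N. The number of calls depended on the fit, and the DA arrays alone gave 0 with or without the block. A gene that was not called may still have changed. Without the block, 1 of 11951 members was called at an adjusted p under 0.05 (0.00837% of members), Tbc1d30, which rose 2.2-fold. With the replicate block 10 members were called (0.0837%), of which 9 rose (0.0753%) and 1 fell (0.00837%). The risers were Tbc1d30, Arrdc3, Sik1, Crem, Cdc42se2, Tsc22d3, Nr4a2, Cep85l and Txnip, and the gene that fell was Ccn2, known in the older literature as Ctgf. No tested probe set without a single symbol was called in either fit, since 1 and 10 of all 18690 passed as well (0.00535% and 0.0535%). When 1 array was left out of the fit with the block, Tbc1d30 was still called in 12 of 12 fits, Arrdc3 in 10, and each of the other 8 genes in at most 1. The 10 changes had sizes from 0.67 to 1.14 (log2), that is 1.59-fold to 2.2-fold.

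The differences of the remaining members were small. The SD of the log2 difference N minus F over the members was 0.143, its median 0.0285, and 92.0% of members had a size under 0.25. Only 68 members reached a size of 0.5, and 4 reached 1: Tbc1d30, Arrdc3, Hbb and Hbb-b1. The groups did not overlap at 639 members (5.35%), 415 higher in N (3.47%) and 224 lower (1.87%), and these percentages are the background against which the list counts are read. Over all 18690 tested probe sets the share without overlap was 5.03%. All 3 pairs of the same number differed the same way at 2911 members (24.4%), against 24.2% of all tested probe sets. An unadjusted p under 0.05 was reached by 255 members (2.13%) without and 824 (6.89%) with the block, against 2.01% and 7.32% of all tested probe sets. An exact permutation of 3 arrays against 3 cannot give a two-sided p below 0.1, so single genes were judged by limma alone. Groups without overlap have that p of 0.1, and 5.35% of members is no more than such a p allows at random. Absence of overlap is thus no sign of a change in a gene by itself. The 2.13% without the block was likewise no more than a threshold of 0.05 allows at random.

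**Figure D2:**
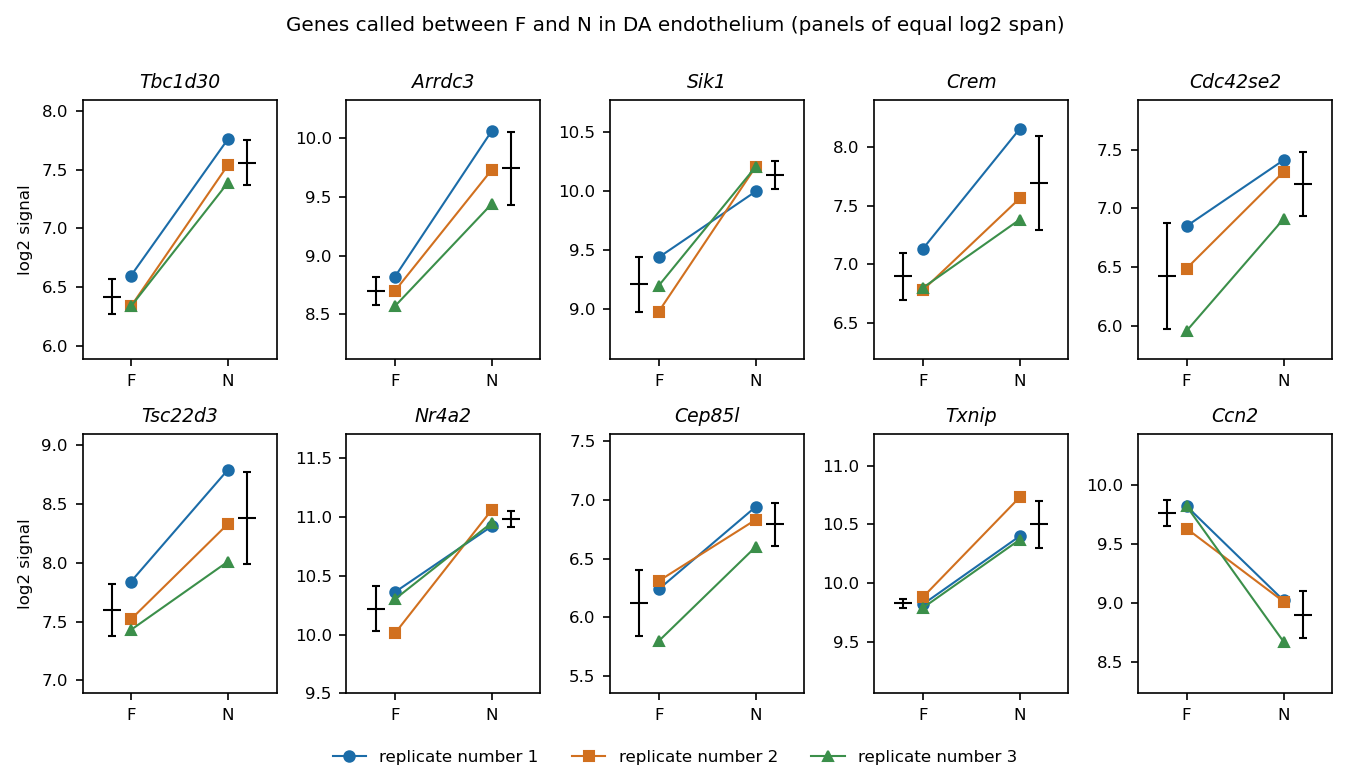
Log2 signal (y axis) of the 10 called genes in F and N (x axis) of the DA, with a symbol and line for each replicate number and, beside the points, the mean with its SD (n = 3). In all 10 genes the 3 lines run the same way, up in 9 genes and down in Ccn2. The fit with the block favours genes whose lines run alike, and they did so in 24.4% of all members.

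The probe set of Tbc1d30 takes its name from the study's own tables, since the platform table used here gives it none. Tbc1d30 encodes a Rab GTPase-activating protein, a class that switches off vesicle traffic regulators. It read 6.6, 6.34 and 6.34 in F and 7.76, 7.54 and 7.39 in N, so that the lowest N array lay above the highest F array. The rise was 1.14 ± 0.13 (SE, 95% interval 0.85 to 1.42), with adjusted p = 0.026 without and 0.000584 with the block. Without the block the call held in 4 of 12 fits that left out 1 array and was lost without F array 2 or 3 or N array 1 or 2 of either vessel (adjusted p up to 0.294), and it was lost as well in the DA arrays alone (0.921) and under median centring (0.107). With the block it was lost in the DA arrays alone (0.234) and without the 4 arrays numbered 1 (0.0592) or 2 (0.293). Among 26 tested genes of the TBC-domain family it stood alone past the threshold: 16 differences were positive and 10 negative with a median of 0.039. The next were Sgsm3 at 0.37, without overlap of the groups, and Tbc1d15 at 0.29, with overlap (adjusted p = 0.437 and 0.742 with the block). Across members the median was 0.028 and 59.2% of differences were positive, which is the level to read such counts against. The lean to N depended on signal. At an unadjusted p under 0.05 in limma, 227 tested probe sets rose and 148 fell, against 246 and 373 without the lys filter. Lists of bright genes may therefore lean to N more than all members do.

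Of the 7 arrestin family genes tested, 2 were called up with the block, against 0.0753% of members. The gene lists of this report were chosen with earlier results of these data known. Counts of calls on them are therefore no support for a pathway. Arrdc3, an adaptor that brings ubiquitin ligases to membrane receptors, read 8.82, 8.70 and 8.57 in F and 10.06, 9.73 and 9.44 in N. It rose by 1.05 ± 0.20 (adjusted p = 0.443 without, 0.00343 with the block). Txnip, which binds thioredoxin and restrains glucose uptake, read 9.82, 9.88 and 9.79 in F and 10.40, 10.73 and 10.37 in N, a rise of 0.67 ± 0.13 (adjusted p = 0.443 and 0.0239). The F arrays of Txnip had an SD of 0.04, far less than the step to N. The other 5 arrestin genes, among them Arrdc4 at 0.19, did not pass, and the median of the 7 was 0.181.

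Of the 9 risers, 3 were on the list of genes that answer to cyclic AMP, which was likewise chosen with earlier results known. Sik1, a kinase that phosphorylates the coactivators of CREB, read 9.44, 8.98 and 9.20 in F and 10, 10.21 and 10.21 in N. It rose by 0.93 ± 0.13 (adjusted p = 0.107 without, 0.0239 with the block). Crem, which encodes activator and repressor forms that bind the same element as CREB, read 7.13, 6.78 and 6.80 in F and 8.15, 7.56 and 7.38 in N. Its lowest N array exceeded its highest F array, and it rose by 0.79 ± 0.22 (adjusted p = 1 and 0.0239).

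Nr4a2, an orphan nuclear receptor of the immediate early class, read 10.36, 10.01 and 10.30 in F and 10.92, 11.06 and 10.95 in N, and it rose by 0.76 ± 0.12 (adjusted p = 0.292 and 0.0297). The N arrays of this gene were close together, with an SD of 0.07 against 0.19 in F. Its relatives Nr4a1 and Nr4a3 differed by 0.64 and 0.33 without overlap but did not pass (adjusted p = 0.191 and 0.437 with the block). Pde4b, a phosphodiesterase that degrades cyclic AMP, differed by 0.51 and Gem, a small GTPase, by 0.47, again without overlap and without a call. Per1 (0.42), the period clock gene, and Rgs2 (0.40), a regulator of G protein signalling, overlapped between the groups. Of the 23 cyclic AMP responsive genes tested, 18 had a positive and 5 a negative difference with a median of 0.129, which was 0.20 without F array 2 of the DA (0.23 with the block). With the block 3 of the 23 were called, all up, against 0.0753% of members. The groups did not overlap at 9 higher and 2 lower genes, against 3.47% and 1.87% of members.

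Of 24 immediate early genes tested, 20 had positive differences with a median of 0.108, and with the block 1 was called, Nr4a2. The groups did not overlap at 7 higher genes and 1 lower gene of the 24. Nr4a1, Nr4a2, Nr4a3 and Fosl2 are among the 7 and are on the cyclic AMP list as well. Dusp1 and Per1 are on the cyclic AMP and the glucocorticoid lists, so the counts of these lists are not independent. Egr1, a zinc finger factor induced by many stimuli, already read 12.50, 12.42 and 12.49 in F and 12.42, 12.62 and 12.56 in N. It differed by 0.07, while Egr3 and Fosl2, of the same class, were higher on all 3 N arrays by 0.42 and 0.44 (adjusted p = 0.472 for each with the block). Myc, a growth regulator, lay the other way: 9.11, 8.82 and 8.94 in F against 8.65, 8.48 and 8.28 in N. Its difference of -0.49 ± 0.15 missed the threshold (adjusted p = 1 and 0.226).

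Genes that respond to glucocorticoids were partly higher. Tsc22d3, the glucocorticoid-induced leucine zipper, read 7.84, 7.52 and 7.43 in F and 8.79, 8.33 and 8.01 in N. It rose by 0.78 ± 0.20 (adjusted p = 1 without, 0.0239 with the block), and in each pair of the same number N was the higher array. Ddit4, an inhibitor of mTOR signalling, differed by 0.66 and Errfi1, an inhibitor of the EGF receptor, by 0.54, both without overlap of the groups (adjusted p = 0.0924 and 0.0663 with the block). Nfkbia, the NF-kappa-B inhibitor, differed by 0.33. Of 22 genes tested, 17 had positive differences and the median was 0.146, against 0.157 in the aorta. The pair medians in the DA were 0.086, 0.305 and 0.035 for numbers 1, 2 and 3. With the block 1 of the 22 was called, and 4 were higher without overlap.

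Cdc42se2 and Cep85l completed the risers. Cdc42se2, an effector of the GTPase Cdc42, read 6.85, 6.49 and 5.96 in F and 7.41, 7.31 and 6.91 in N (0.78 ± 0.21, adjusted p = 1 and 0.0494). A second probe set of this gene differed by 0.27 and did not pass (adjusted p = 0.576 with the block), so the gene's probe sets disagree in size. Cep85l, a centrosomal protein gene, read 6.24, 6.31 and 5.8 in F and 6.94, 6.83 and 6.6 in N (0.68 ± 0.16, adjusted p = 0.938 and 0.0239). In these genes the arrays numbered 3 were the lowest of each group, and the paired differences were closer than the groups' own spread.

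The largest rises without overlap that were not called began with Tmem100, an endothelial gene downstream of BMP receptor signalling, at 0.99 ± 0.20. It read 5.28, 5.44 and 5.13 in F and 6.78, 5.96 and 6.07 in N (adjusted p = 0.492 and 0.0663), and 1 of its F arrays lay under lys. Ccl21, a chemokine of lymphatic endothelium, read 7.13, 7.52 and 7.22 in F and 8.46, 8.29 and 7.60 in N, a difference of 0.82 ± 0.41 (adjusted p = 1 and 0.505). Net1, an exchange factor of RhoA, followed at 0.74, Lbh, a transcription cofactor, at 0.69 and Mex3b, an RNA-binding protein, at 0.68 (adjusted p = 0.231, 0.0848 and 0.166 with the block). A second probe set of Lbh differed by 0.27 with overlapping groups.

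Ccn2, the connective tissue growth factor, read 9.82, 9.63 and 9.82 in F and 9.02, 9.01 and 8.67 in N. It fell by 0.86 ± 0.15 on the log2 scale (1.82-fold, 95% interval of the log2 difference -1.19 to -0.53), with adjusted p = 0.443 without and 0.0239 with the block. Amotl2, a junction scaffold of the angiomotin family, read 9.25, 9.37 and 9.39 in F and 8.82, 8.75 and 8.59 in N, a difference of -0.62 ± 0.12 (adjusted p = 0.443 and 0.0663). Ajuba, a LIM protein that restrains the kinases upstream of YAP, was lower on all 3 N arrays (-0.44), with adjusted p = 0.216 with the block. The fall was thus seen on all 3 N arrays in each of these 3 genes, although only Ccn2 passed. Of 17 YAP and mechanical target genes tested, 12 were negative and 5 positive with a median of -0.106, and the groups did not overlap at 5, all lower in N. Of the relatives of Ccn2 on this list, Ccn1 differed by -0.14. Ccn3 went the other way by 0.31, the highest value of the list, with overlapping groups (adjusted p = 0.636 with the block).

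Promoters of 4 called risers and of Ccn2 and Amotl2 are shown, genes chosen after their values were seen, so that the letters near their starts can be read beside the values. Each of these promoters holds the letters marked below. The called risers Arrdc3, Cdc42se2 and Cep85l also had an entry, which holds no TGACG on either strand and is not shown. They were taken from RefSeq (build GRCr8) as 300 bases from 250 before to 50 after the annotated start, 5′ to 3′ on the gene's strand. Of the 26 genes called or among the largest rises and falls, 21 had an entry. In the promoters of the higher genes capitals mark TGACG, the core of the cyclic AMP response element, on either strand, so that CGTCA is marked as well and the full palindrome TGACGTCA appears as 1 run.

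Crem (chr17:58985240-58985539, plus strand): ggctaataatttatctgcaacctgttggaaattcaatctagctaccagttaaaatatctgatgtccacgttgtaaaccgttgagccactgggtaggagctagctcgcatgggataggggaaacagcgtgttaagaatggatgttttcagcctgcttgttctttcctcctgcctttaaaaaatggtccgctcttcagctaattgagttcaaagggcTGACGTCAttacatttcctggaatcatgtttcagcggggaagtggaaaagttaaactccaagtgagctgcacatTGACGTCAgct
Sik1 (chr20:9958597-9958896, minus strand): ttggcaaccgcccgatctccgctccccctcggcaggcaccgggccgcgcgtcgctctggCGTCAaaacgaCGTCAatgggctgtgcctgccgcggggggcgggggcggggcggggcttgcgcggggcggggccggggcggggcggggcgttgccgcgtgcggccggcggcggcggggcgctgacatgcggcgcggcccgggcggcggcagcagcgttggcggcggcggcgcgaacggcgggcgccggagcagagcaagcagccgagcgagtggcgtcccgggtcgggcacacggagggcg
Nr4a2 (chr3:62104838-62105137, minus strand): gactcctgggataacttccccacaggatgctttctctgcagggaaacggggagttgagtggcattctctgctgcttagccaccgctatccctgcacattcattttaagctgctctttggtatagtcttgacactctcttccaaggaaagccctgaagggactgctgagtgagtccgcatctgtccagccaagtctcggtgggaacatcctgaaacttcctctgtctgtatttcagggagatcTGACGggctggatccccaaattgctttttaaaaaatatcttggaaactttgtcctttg
Tsc22d3 (chrX:109009985-109010284, minus strand): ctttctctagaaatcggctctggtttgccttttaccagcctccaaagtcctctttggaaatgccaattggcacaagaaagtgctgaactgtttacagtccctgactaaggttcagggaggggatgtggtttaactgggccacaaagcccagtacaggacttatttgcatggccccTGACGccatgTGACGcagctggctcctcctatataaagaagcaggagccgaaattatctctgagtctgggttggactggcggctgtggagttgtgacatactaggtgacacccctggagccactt

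In the promoters of the lower genes capitals mark GGAATG, the TEAD motif, or its reverse complement CATTCC.

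Ccn2 (chr1:22624565-22624864, minus strand): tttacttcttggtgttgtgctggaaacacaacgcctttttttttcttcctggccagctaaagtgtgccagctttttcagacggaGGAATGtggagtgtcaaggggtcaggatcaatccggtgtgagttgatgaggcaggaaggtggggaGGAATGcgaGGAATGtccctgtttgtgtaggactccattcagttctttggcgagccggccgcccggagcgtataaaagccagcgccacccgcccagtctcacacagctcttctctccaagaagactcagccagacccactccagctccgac
Amotl2 (chr8:112182376-112182675, plus strand): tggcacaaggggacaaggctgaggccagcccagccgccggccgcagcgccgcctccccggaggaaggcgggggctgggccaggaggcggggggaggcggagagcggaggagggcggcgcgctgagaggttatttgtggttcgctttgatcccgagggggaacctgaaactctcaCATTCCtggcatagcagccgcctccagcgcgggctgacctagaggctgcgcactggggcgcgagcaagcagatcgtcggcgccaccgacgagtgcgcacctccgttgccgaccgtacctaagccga

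The core TGACG occurred on either strand in 5 of the 10 higher genes with an entry (Crem, Mex3b, Nr4a2, Sik1 and Tsc22d3) and in 1 of 11 lower genes (Ensa). It occurred in 30.9% of the 9306 member genes with an entry and in 23.0% of all 27457 genes, counting a gene when any of its promoters held it. The full element TGACGTCA, which contains the core on both strands, occurred in Crem alone of the 21, against 2.98% of member genes. The promoter shown for Tsc22d3 is that of 1 of its 3 annotated starts, and the other 2 do not hold the core. The promoter shown for Crem is that of 1 of its 3 annotated starts and holds the full element with first bases at -35 and 40 relative to the start. GGAATG occurred in 0 of 10 higher and in 5 of 11 lower genes (Alas2, Amotl2, Ccn2, Hba-a3 and Rasgrf2), against 11.8% of member genes, and Ccn2 held it 3 times, with first bases at -166, -101 and -92. ACGTG, a hypoxia response core, occurred in 2 of 10 higher and 2 of 11 lower genes, CACGTG in 1 and 1, and TGANTCA in 0 and 1, the first 2 motifs overlapping each other. The full glucocorticoid response element occurred in 0 of the 21 and in 0 of the member genes. These matches describe letters in a window and were not measured as binding.

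The largest negative differences were those of beta-globin. Hbb read 9.80, 8.21 and 8.13 in F and 7.49, 7.19 and 6.85 in N, a difference of -1.54 ± 0.37 (adjusted p = 0.896 without, 0.166 with the block). Hbb-b1, a near-identical copy whose probes may read the same transcripts, differed by -1.04 and Hba-a3, an alpha-globin gene, by -0.55. Alas2, the first enzyme of heme synthesis in red cell precursors, read 5.06, 5.03 and 4.96 in F and 4.32, 4.42 and 4.66 in N (adjusted p = 0.732 and 0.204). All 4 genes were lower on every N array, and none was called. The summed signal of the 7 tested of 17 erythroid markers was 9.06 to 10.32 in F and 8.54 to 8.60 in N (log2). The other 4 tested markers, which are not globin or heme synthesis genes, lay between -0.05 and 0.03, and the embryonic globin Hbe1 lay under the filter. In RNA of pooled cells, fewer cells of a type and less RNA per cell cannot be told apart, and the part of the erythroid signal in the other differences was not tested.

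Among the 12 largest falls without overlap, several probe sets were dim. Rasgrf2, a Ras exchange factor (-0.58), Map10, a microtubule-associated protein (-0.57), and Hba-a3 lay under lys on 2 DA arrays each. Ptgds, the prostaglandin D2 synthase (-0.57), Ensa, a regulator of a mitotic phosphatase (-0.53), Pdzd4 (-0.51) and Alas2 lay under it on 3 each. A brighter probe set of Ensa differed by -0.06 with overlapping groups. Sele, the E-selectin of activated endothelium, was well above lys: it read 8.95, 8.80 and 8.73 in F and 8.29, 8.25 and 7.70 in N, a difference of -0.75 ± 0.19 (adjusted p = 1 and 0.166). With Vcam1, an adhesion molecule for leukocytes, lower on all 3 N arrays (-0.39), it was 1 of 2 inflammatory endothelial genes of 20 without overlap, both lower. Il6, the cytokine, went the other way by 0.72 with overlapping groups, since its first F array (7.21) lay above 2 of the N arrays (7.17 and 7.11). The median of the 20 was -0.021.

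**Figure D3:**
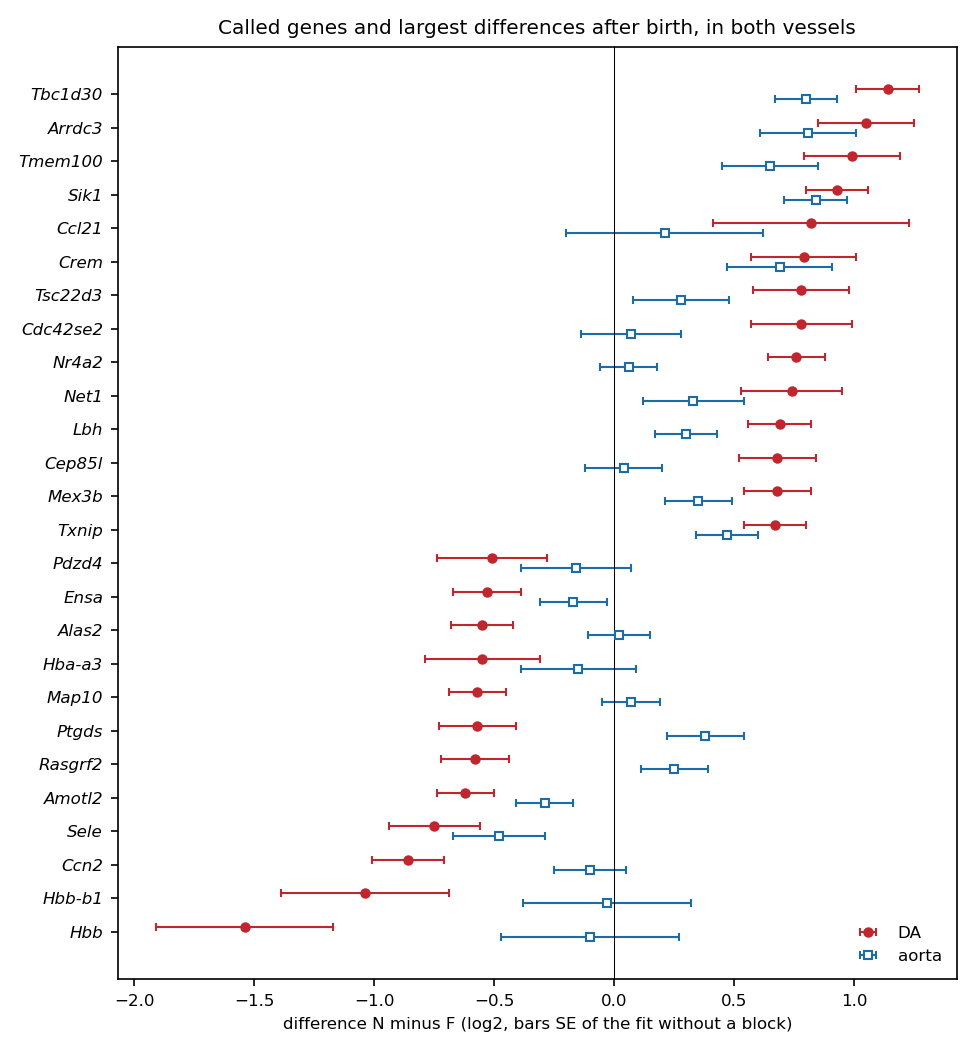
Log2 difference N minus F (x axis) in the DA (filled circles) and in the aorta (open squares) for the 26 genes (y axis) called or among the largest rises and falls of the DA, with the SE of limma without the block. Genes were chosen on the DA values. Tbc1d30, Arrdc3, Sik1 and Crem lie to the right in both vessels, and Nr4a2, Cdc42se2, Cep85l and Ccn2 lie near 0 in the aorta.

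The aorta served to ask whether a change was particular to the DA. In aortic ECs 0 members were called without the block (smallest adjusted p = 0.464) and 2 with it (0.0167%), Tbc1d30 (0.80, adjusted p = 0.0254) and Arrdc3 (0.81, adjusted p = 0.0353). Sik1 and Crem differed there by 0.84 and 0.69, each with adjusted p = 0.0836 with the block, and Txnip by 0.47. By contrast, the aortic differences were 0.06 for Nr4a2, 0.07 for Cdc42se2, 0.04 for Cep85l, 0.28 for Tsc22d3 and -0.10 for Ccn2. Tested directly, the vessels' difference called 0 probe sets in either fit (smallest adjusted p = 1 without and 0.999 with the block), and 92 members (0.77%) had an unadjusted p under 0.05 without it. Nr4a2 (unadjusted p = 0.00164), Ccn2 (0.00399), Cdc42se2 (0.0318) and Cep85l (0.0179) were among these by limma, and Ptgds, which was 0.38 higher in N of the aorta, had 0.000932. Since the genes were chosen for their DA values and no adjusted p passed, none of these changes is called particular to the DA. Over the members, the differences of the vessels correlated at r = 0.169, across genes, which are not independent, between arrays that share replicate numbers.

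**Figure D4:**
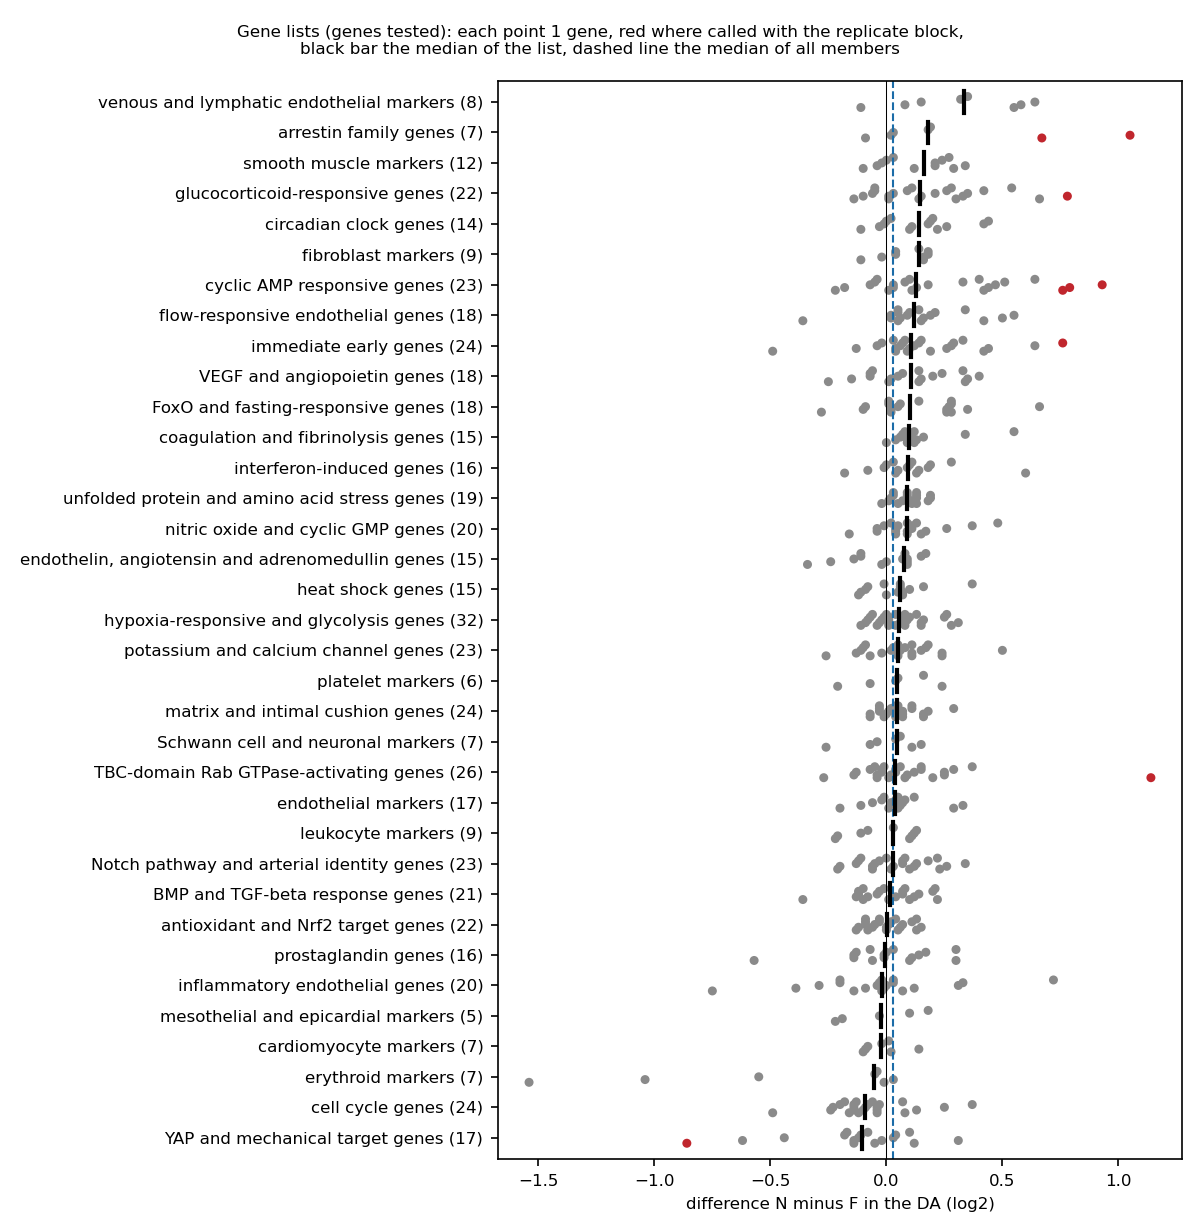
Log2 difference N minus F in the DA (x axis) for each tested gene of 35 lists (y axis, with the number tested), ordered by median (black bars); red points were called with the replicate block and the dashed line is the median of all members, 0.028. The red points belong to the arrestin, glucocorticoid, cyclic AMP, immediate early and TBC-domain lists on the right and to the YAP list on the left.

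No gene of the lists that bear on tone of the DA was called. Of 16 prostaglandin genes tested, 7 were positive and 9 negative with a median of -0.007, and with the block 0 were called. Ptger4, the prostaglandin E2 receptor that raises cyclic AMP, read 10.56, 10.22 and 9.96 in F and 10.69, 10.53 and 10.43 in N, a difference of 0.30 ± 0.15 with overlap of the groups. Pla2g4a, which frees arachidonic acid, differed by 0.30 and did not overlap (adjusted p = 0.705 with the block). The largest difference of the list was that of Ptgds, -0.57 without overlap (adjusted p = 0.221 with the block), a dim probe set that lay under lys on 3 DA arrays. In the nitric oxide and cyclic GMP list 16 of 20 were positive with a median of 0.090, led by Gucy1a1, a subunit of the nitric oxide receptor, at 0.48 and Pde2a, a phosphodiesterase, at 0.37, neither called. Edn1, the constrictor peptide endothelin, read 11.73, 11.95 and 12.17 in F and 11.61, 11.77 and 11.43 in N, a difference of -0.34 ± 0.14 (adjusted p = 1 and 0.514). The F and N arrays of Edn1 overlapped, although N was lower in every pair of the same number. The hypoxia-responsive and glycolysis genes, of which 22 of 32 were positive, had a median of 0.053 and 0 calls, with Ndrg1 (0.31) and Mxi1 (0.28) the highest. The antioxidant and Nrf2 target genes were split 11 to 11 with a median of 0.001, and none of the 22 was without overlap.

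Most genes of the flow and clotting lists had positive differences, where 59.2% of all members did. Plat is on each of these lists, so their counts are not independent, and bright genes may lean to N more than members at large. The aortic medians were 0.063 for flow and 0.059 for clotting, against -0.002 for all members. Of 18 flow-responsive genes 17 were positive with a median of 0.119. Plat, the tissue plasminogen activator, read 10.41, 10.39 and 10.40 in F and 10.85, 11.16 and 10.85 in N, a difference of 0.55 ± 0.12 (adjusted p = 0.538 and 0.0905). The F arrays of Plat had an SD of 0.01, and the aorta showed 0.52. Kcnj2, an inward rectifier potassium channel, differed by 0.50 with overlap, and Klf2, the flow-induced factor, by 0.16 with overlap. Bmp4, a ligand of BMP receptors, was the exception on this list, lower on all 3 N arrays (-0.36) and not called. All 15 coagulation and fibrinolysis genes were positive with a median of 0.099, Plat and Entpd1 (0.34), the enzyme that removes extracellular ATP, being without overlap. None of these genes was called in either fit.

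No gene of the vascular growth and identity lists was called in either fit. The VEGF and angiopoietin genes had a median of 0.104 over 18 genes, 4 higher and 1 lower without overlap, with Rcan1, an inhibitor of calcineurin, at 0.40 and Kdr, the main VEGF receptor, at 0.33, both without overlap (adjusted p = 0.259 and 0.525 with the block). Notch pathway and arterial identity genes had a median of 0.029 over 23, with Dll4, the arterial Notch ligand, at 0.34 with overlap. Gja5, the connexin of arterial endothelium, and Sox17, an arterial factor, were lower on all 3 N arrays (-0.21 and -0.20) and were not called. Of 24 cell cycle genes 19 were negative, with a median of -0.092. Cdc20, a mitotic activator, read 9.21, 9.06 and 9.27 in F and 8.69, 8.80 and 8.58 in N, a difference of -0.49 ± 0.12 (adjusted p = 0.896 and 0.201). Cdkn1a and Cdkn1b, inhibitors of cell cycle kinases, differed by 0.37 and 0.25 the other way.

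Markers of other cells were measured beside these results. The 8 tested venous and lymphatic endothelial markers had a median of 0.334, with pair medians of 0.448, 0.438 and -0.001 for numbers 1, 2 and 3, and the aorta gave 0.213. Lyve1, the hyaluronan receptor of lymphatic endothelium, read 7.70, 8.31 and 8.75 in F and 8.63, 9.35 and 8.53 in N. Reln differed by 0.64 and Prox1, the lymphatic master regulator, by 0.55, and with the block 0 of the 8 were called. The summed level was 9.82 to 10.33 in F and 10.26 to 10.64 in N, and its part in the value of Ccl21, which is made by such cells, was not tested. Smooth muscle markers summed to 12.11 to 12.22 in F and 12.12 to 12.47 in N, with a median of 0.162 over 12 genes, Cnn1 at 0.34 and Tagln at 0.29. Fibroblast markers summed to 12.57 to 12.88 and 12.76 to 12.90, and leukocyte markers to 8.77 to 9.05 and 8.81 to 9.13. Of these 4 lists 0 members were called in either fit, and the part of these cells in the called genes was not tested.

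**Figure D5:**
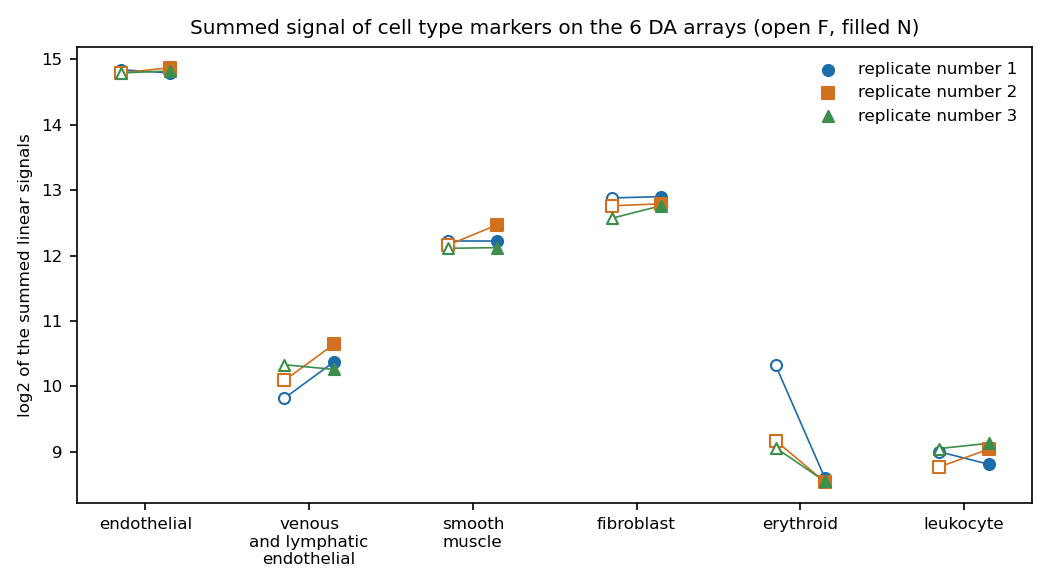
Log2 of the summed linear signals (y axis) of 6 cell type marker lists (x axis) on the 6 DA arrays; open symbols are F, filled symbols N, and lines join replicate numbers. Levels are compared within a list only, since probe sets differ in brightness. The erythroid sum is lower on all N arrays, and the lymphatic sum is higher in N for numbers 1 and 2.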

How the data were processed

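RNA of sorted ECs was hybridized to Rat Gene 1.0 ST arrays. The authors deposited 1 log2 signal per probe set, summarised by a method not stated in the labels, the paper or the file. The medians of the DA arrays ranged from 5.65 to 5.74, so no further normalization was applied; precision is limited by having 3 arrays a group. Symbols came from the platform table updated through RefSeq, 52 of them from the study's tables: 15359 probe sets had 1 symbol, 323 several and 10786 none. The lys filter left 18690 probe sets. limma 3.58.1 in R 4.3.3 fitted 4 group means over 12 arrays (8 residual degrees of freedom), and again with the replicate number as a block (6). Benjamini-Hochberg adjustment ran over all 18690, with calls at an adjusted p under 0.05. The numbers were assumed to pair the arrays, which the labels do not state. Deviations from group means correlated at 0.1025 to 0.82 for same numbers (0.1908 to 0.5693 in the DA) and at -0.738 to 0.3678 for different numbers. These ranges overlap: aorta F array 2 had 0.1025 with aorta N array 2 and 0.3678 with aorta N array 3. A gene on a list was represented by its brightest probe set. Named genes were every called member, the 12 largest rises and 12 largest falls without overlap, up to 4 members per list with well-known ones added, and sort markers. Members, lists and alternatives were chosen with earlier results of these data known. The procedure was tested on simulated data. Alternatives changed the block, arrays, filter, scaling, variance prior and test.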

Additional observations from a re-analysis of the deposited data

How the results depend on the processing

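The number of calls between N and F in the DA depended on the fit. Against 1 probe set in limma without the block, the replicate block gave 10, an intensity trend 2, the DA arrays alone 0 with or without the block, and median centring 0, at which Tbc1d30 had adjusted p = 0.107. No filter, a stricter filter and quantile normalization each gave 1. The methods' t-test, run on the 18690 probe sets that passed the lys filter used here, gave 7 at their threshold of p and fold. Arrdc3 and Tbc1d30 were the named ones. It gave 0 after Benjamini-Hochberg, with 425 probe sets at an unadjusted p under 0.05 against 375 in limma. The paper's own filter kept fewer probe sets, so these counts are not those of the paper. Leaving out single arrays gave 0 to 4 without the block.

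Alternatives chosen after seeing the data were the block without single arrays, which gave 1 to 6, the block with an intensity trend, which gave 26 (21 up, 5 down), the block on quantile-normalized values, which gave 10 and shared 8, and the block without the arrays numbered 1, 2 or 3, which gave 2, 0 and 4. With the block, Tbc1d30 was called in 12 of 12 fits that left out 1 array and Arrdc3 in 10, lost without N array 1 or 2. Each of the other 8 was called in 0 or 1 of these 12. In the aorta the block gave 3, with an intensity trend 8, on quantile-normalized values 2, and without single arrays 0 to 3. The difference between the vessels gave 0 throughout.

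Signs turned only at small values. Tek read -0.02 under quantile normalization with and without the block, -0.05 without the arrays numbered 1, and -0.06 to 0.13 without single arrays (-0.05 to 0.08 with the block, -0.01 without N array 1). Cdh5 read -0.06 to 0.03 without single arrays (-0.04 to 0.01 with the block) and Klf2 0.02 to 0.29 (-0.03 to 0.40). With the block, Egr1 read 0.00 without the arrays numbered 2 and Klf2 -0.08 without those numbered 3. Under the stricter filter the median of the cyclic AMP list was 0.36 and that of the erythroid markers -1.29. That filter keeps probe sets at or above lys on all 3 F or all 3 N arrays of the DA. A gene can thus enter through its higher group, and these medians are no support for a change. The erythroid median rested on Hbb and Hbb-b1 alone. Hbb-b1 passed through F, since its N array 1 (5.66) lay under lys (5.78). Without single arrays the cyclic AMP median ran from 0.09 to 0.20 (0.11 to 0.23 with the block), and the medians of 16 of 35 lists changed sign (13 with the block). The causes were not tested.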

Other observations

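Other gene groups gave the following values in the DA. Of 14 circadian clock genes 11 were positive with a median of 0.142, and 4 were higher without overlap of the groups, against 3.47% of members. Nr1d1, a repressor of the clock, read 6.55, 6.40 and 6.69 in F and 6.79, 6.86 and 7.32 in N, a difference of 0.44 ± 0.15 (adjusted p = 1 without, 0.265 with the replicate block). Bhlhe40 and Per3, also clock repressors, were higher on all 3 N arrays by 0.22 and 0.20. The FoxO and fasting-responsive genes had 15 of 18 positive and a median of 0.101, below the 0.155 of the aorta. None of these was called by limma in either fit.

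The unfolded protein and amino acid stress genes had 18 of 19 positive but small differences, with a median of 0.090 and a highest value of 0.19, that of Atf4, the main factor of this response. Heat shock genes had a median of 0.059 over 15, with Hspb1, a small heat shock protein, at 0.37 without overlap and at -0.10 in the aorta (unadjusted p of the difference 0.0821). Interferon-induced genes had a median of 0.095 over 16, with Ifit3 at 0.60 and overlapping groups. The matrix and intimal cushion genes, which include those of the cushions that close the DA, had a median of 0.044 over 24, and Mmp14, a membrane matrix protease, at 0.29 was the only one without overlap. Of these 4 lists 0 members were called in either fit.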
